A study of Mus musculus with 15 samples.

Results

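The mitosis genes are 43 named genes for cyclins and kinases of the G2 and M phases, spindle, kinetochore and checkpoint proteins, and factors of cytokinesis, out of 21788 gene symbols listed in the files of the series. They were taken from a list of names and not by a rule on their values in these files. The list was chosen with earlier results of these data known. All 43 were listed for 13 of the 15 libraries, and 39 were listed for the other two, where Kif20a, Tpx2, Racgap1 and Ect2 had no entry. The libraries came from CD8+ T cells that had entered E.G7 tumours (tumour-infiltrating lymphocytes, TILs). E.G7 is a mouse T lymphoma line that expresses ovalbumin (OVA).

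Female mice received E.G7 cells under the skin at 6 to 8 weeks of age, and the sorted cells were taken on day 21. All samples are labelled as 9 to 11 weeks old, and the strain is given as C57BL/6 for the bulk and antibody libraries. The 2 bulk libraries hold OVA-specific CD8+ TILs, 1 from wild-type mice and 1 from mice labelled B7S1 KO, with 6 mice per group. B7S1, encoded by Vtcn1, is a ligand that restrains T cells. The 9 sorted libraries hold PD-1+ CD8+ TILs of 3 populations: B7S1R_SP cells, which were positive for the B7S1 receptor and negative for Tim-3, TIM-3_SP cells, which were positive for Tim-3 and negative for the receptor, and DN cells, which were negative for both. Each population was measured in 3 sets: wild type numbered 1, wild type numbered 2, and KO. The 4 antibody libraries, from wild-type mice, are titled Control, anti_B7S1, anti_PD1 and combo; combo is read here as both antibodies together, which the labels do not spell out. Dose, schedule, number of mice and sort gate of these 4 libraries are not given in the sources used here, nor is how the B7S1 allele was made or how many mice stand behind each sorted library. In the sorted libraries the strain field counts upward from sample to sample, as does the genotype field of the KO set (B7S1, B7S2 and B7S3 KO), so groups were read from the titles.

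Entry into mitosis is driven by the kinase Cdk1 bound to cyclin A or cyclin B, and exit requires the anaphase-promoting complex (APC/C), which marks cyclin B for destruction once every kinetochore is attached to the spindle. Most of these genes are switched on together late in the cell cycle and are nearly silent in resting cells, and the DREAM and MuvB complexes are known to act on them through the cell cycle homology element (CHR) near the start site. In tumours, dividing CD8+ T cells are a mixture with resting ones, so bulk RNA levels of these genes reflect both how many cells divide and how much RNA each of them holds. In these libraries fewer dividing cells and less RNA per cell cannot be told apart.

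Promoter sequences show what the members share outside the expression values. RefSeq start sites on GRCm38.p6 were matched for 36 of the 43 members (not Ccna2, Aurkb, Kif20a, Tpx2, Spc24, Incenp and Pbk). Windows from 250 bases before to 50 bases after the start were searched on both strands. The letters searched were CCAAT and the CHR forms TTTGAA and TTCGAA. No other form of the CHR was searched. The TTTGAA form was present in 27 of the 36 members (75%) against 17.9% of all 32851 windows. A member with several start sites was counted here and below when any of its windows held the motif, whereas the shares of all are per window. TTCGAA was present in 3 of the 36 (8.33%) against 1.56%. Either form lay within 50 bases of the start in 25 members (69.4%) against 5.31% of all windows. CCAAT was present in 27 members (75%) against 37.4%, and CCAAT together with either CHR form in 24 members (66.7%) against 7.53%. CCAAT shared letters with a CHR form in 1 member (2.78%) and in 0.146% of all windows. No TTTGAA or TTCGAA was found in the windows of Birc5, Ccnb1, Cenpe, Mad2l1, Melk, Nuf2, Nusap1 and Ube2t. These matches are descriptions of letters in a window and not measured binding sites. The 6 stretches of 150 bases printed here, from 100 bases before to 50 after the start, run 5′ to 3′ on the gene's strand and were chosen because they hold the cyclin B genes and their kinase, the APC/C activator, the most abundant kinetochore gene and a member that differed from the others in the antibody libraries. They are Ccnb1 (chr13:100786437-100786586, minus strand), Ccnb2 (chr9:70421505-70421654, minus), Cdk1 (chr10:69352863-69353012, minus), Cdc20 (chr4:118437294-118437443, minus), Cenpa (chr5:30666786-30666935, plus) and Ube2t (chr1:134962465-134962614, plus). Capitals mark TTTGAA and CCAAT, or their reverse complement on the other strand (ATTGG for CCAAT).
Ccnb2: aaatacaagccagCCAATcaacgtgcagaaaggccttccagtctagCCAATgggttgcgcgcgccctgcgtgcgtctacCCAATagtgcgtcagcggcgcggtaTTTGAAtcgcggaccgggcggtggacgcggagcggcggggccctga
Cdk1: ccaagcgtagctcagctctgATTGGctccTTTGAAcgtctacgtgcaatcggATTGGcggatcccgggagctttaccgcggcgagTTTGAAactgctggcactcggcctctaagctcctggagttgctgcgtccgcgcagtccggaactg
Cdc20: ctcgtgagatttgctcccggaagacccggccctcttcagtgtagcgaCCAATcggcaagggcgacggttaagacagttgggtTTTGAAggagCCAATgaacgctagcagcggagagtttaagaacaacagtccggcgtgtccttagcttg
Cenpa: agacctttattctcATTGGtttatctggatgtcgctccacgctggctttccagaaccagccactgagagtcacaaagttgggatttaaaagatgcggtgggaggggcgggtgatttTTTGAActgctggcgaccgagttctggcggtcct
Ccnb1: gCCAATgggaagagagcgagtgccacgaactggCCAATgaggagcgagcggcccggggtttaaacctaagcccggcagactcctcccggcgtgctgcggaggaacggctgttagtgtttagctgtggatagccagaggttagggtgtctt
Ube2t: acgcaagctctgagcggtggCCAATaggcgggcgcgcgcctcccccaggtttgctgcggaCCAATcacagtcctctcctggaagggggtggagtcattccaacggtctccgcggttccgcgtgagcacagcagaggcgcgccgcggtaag
With the start base counted as 1, TTTGAA began at base 5 in Ccnb2 and at base 17 in Cenpa, and at 15 and 71 bases before the start in Cdk1 and 18 before it in Cdc20. In Ccnb2 the 3 CCAAT motifs began 87, 54 and 21 bases before the start. Ccnb1 and Ube2t held CCAAT but neither TTTGAA nor TTCGAA in the whole window, and other forms of the CHR were not searched. The 43 genes lie on 18 chromosomes in the GENCODE M21 annotation.

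The files gave RPKM for the bulk pair and FPKM for the other libraries, both scaled to gene length and to the size of the library, without counts. Gene lists differed between the bulk pair (17205 symbols), wild type 1 (15627), wild type 2 with KO (17605) and the antibody libraries (14710), so members were compared within files that list the same genes. Cd8a was detected in all 15 libraries, from 48.6 to 512, and Cd4 ranged from 0 to 23.4. Havcr2, which encodes Tim-3, followed the sort, with 157, 81.8 and 27.4 FPKM in TIM-3_SP and 0 to 9.34 in the other sorted libraries. Pdcd1, which encodes PD-1, was at 142 to 489 FPKM in wild type 1 and at 28.5 to 137 in wild type 2. In the set labelled KO it was at 3.17 to 17.7 FPKM. Vtcn1 went against the labels: it read 0.0687 RPKM in the bulk wild-type library and 9.46 in the bulk KO library, and 0 in the 3 wild type 2 libraries against 0.16, 1.02 and 2.5 FPKM in the B7S1R_SP, DN and TIM-3_SP libraries of the KO set. Whether the deleted part of the gene lies within what was counted is not stated in the sources used here, and these libraries are named by their label below. E.G7 cells are T cells themselves, and no marker list used here separates their RNA from that of TILs.

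Levels of the members spanned a wide range in every group. The median member was at 4.04 RPKM in bulk wild type and 6.39 in bulk labelled KO, and in the sorted libraries it lay between 2.03 (DN of wild type 1) and 9.01 FPKM (TIM-3_SP of wild type 2). In the antibody libraries it was listed at 0 in Control and in anti_B7S1, at 61.2 FPKM in anti_PD1 and at 63.7 in combo. Cenpa, which encodes the histone variant that marks centromeres, was the highest member in 9 of the 15 libraries. Anln, Kif4 and Ttk were at 3.15 FPKM or less in every sorted library, and Anln and Kif4 did not reach the mean of 1 FPKM needed for the test.

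**Figure D1:**
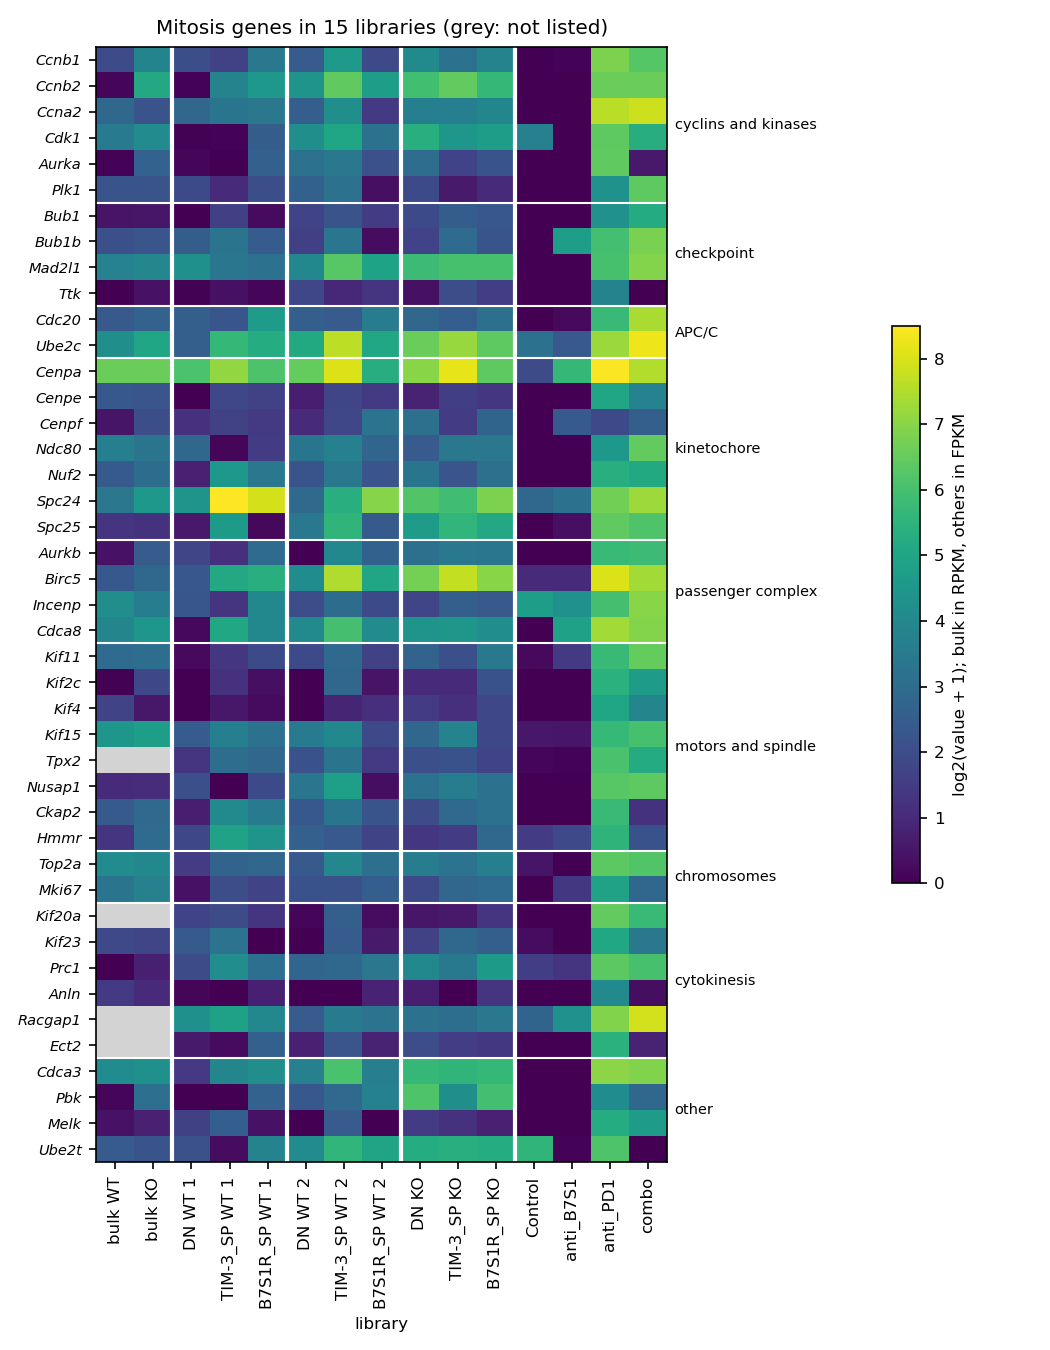
Level of each of the 43 mitosis genes (rows, grouped by role) in the 15 libraries (columns), as log2(value + 1) with values in RPKM for the bulk pair and FPKM elsewhere; grey cells were not listed. The anti_PD1 and combo columns are bright for nearly all rows, with medians of 61.2 and 63.7 FPKM, while Control and anti_B7S1 are dark, with medians of 0.

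In the antibody libraries nearly the whole set was higher where the PD-1 antibody had been given. In anti_PD1 against Control, 41 of 43 members were at least 2-fold higher on the log2(FPKM + 1) scale with 5 FPKM or more in the higher library, a rule that 23.3% of 14710 genes met. None of the 43 were lower by the same rule, against 12.7% of all genes. The median member difference was 5.34 on that scale against 0.07 for all genes. Each treatment has 1 library, so there is no replicate check and no test. With a library scaled to the median of its partner, the median of all genes moved from 0.07 to 0.26. The count of members stayed at 41, where 3579 of 14710 genes were called higher. Because 27 members were listed at 0 in Control, the same rule was also applied to genes above 0 in both libraries. Of the members 16 remained, 14 of them were called higher, and their median difference was 4.48. Of all 7793 such genes, 1675 were called higher and 1660 lower, with a median of 0.02.

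A second pair with and without the PD-1 antibody shares no library with the first. In combo against anti_B7S1, 35 of 43 members were called higher, against 17.1% of all genes, and none lower, against 15.8%. The median member difference was 4.75. Among the 18 members above 0 in both of these libraries, 16 were called higher, as were 1589 of all 7859 such genes. Combo against Control, which shares Control with the first comparison, gave 35 members higher, against 19.7% of all genes, and 1 lower, Ube2t, against 13.7%, with a median of 5.15. For 40 of the 43 members the lower of the anti_PD1 and combo values was above the higher of the Control and anti_B7S1 values, a pattern of 17.1% of all genes; the exceptions were Ttk, Cenpf and Ube2t. In all, 21 members were at 10 FPKM or more in both of the former and under 1 in both of the latter, as were 2.13% of all genes.

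In the sentences that follow, values are in FPKM in the order Control, anti_B7S1, anti_PD1, combo. Ccna2, cyclin A2, was at 0, 0, 195 and 232. Ccnb1 and Ccnb2 encode the B cyclins, and Ccnb1 was at 0, 0.05, 112 and 75.2. Ccnb2 was at 0, 0, 94.3 and 95.3. All 3 cyclins were absent or nearly so from Control and anti_B7S1 and abundant in both other libraries, with no overlap. Cdk1, their kinase, was at 11.9, 0, 83.5 and 38.1, present in Control and listed at 0 in anti_B7S1. Plk1, a kinase of mitotic entry and centrosomes, was at 0, 0, 19.5 and 82.8. Aurka, the Aurora kinase of the spindle poles, was at 0, 0, 84.3 and 0.51, and so stood high in anti_PD1 alone.

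The spindle checkpoint holds back anaphase until kinetochores are attached. Bub1 was at 0, 0, 18.5 and 36.9. Bub1b, which encodes the checkpoint protein BubR1, was at 0, 25.9, 61.2 and 111. Mad2l1, which encodes the Mad2 protein that binds Cdc20, was at 0, 0, 64.1 and 119. Bub1 and Mad2l1 were listed at 0 in both libraries without the PD-1 antibody, while Bub1b was already present in anti_B7S1. Ttk, the kinase that starts checkpoint signalling, was at 0, 0, 12.9 and 0, above 0 in anti_PD1 only. Cdc20, the APC/C activator that the checkpoint blocks, was at 0, 0.17, 51.5 and 171, and Ube2c, a ubiquitin-conjugating enzyme of the APC/C, was at 7.92, 4.24, 149 and 311. Both were highest in combo.

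Of the kinetochore and passenger complex genes, Cenpa was at 2.85, 49.9, 349.8 and 182. Cenpe, a kinetochore motor, was at 0, 0, 31.9 and 12.7. Cenpf, a large kinetochore protein, was at 0.01, 4.3, 2.64 and 4.97, low in all 4 and no higher in anti_PD1 than in anti_B7S1. Of the Ndc80 complex, which binds microtubules, Ndc80 was at 0, 0, 22.0 and 87.7 and Nuf2 at 0, 0, 39.4 and 34.5. Spc25 was at 0, 0.26, 84.8 and 70.1, while Spc24 was above 5 FPKM in every library, at 6.38, 7.97, 101 and 153. The other subunits were at 0.26 FPKM or less in Control and anti_B7S1. Birc5, survivin of the chromosomal passenger complex, was at 1.03, 1.08, 264 and 161. Cdca3, which helps trigger mitotic entry, was at 0, 0, 128 and 118. Cdca8, borealin, was at 0, 27.8, 158 and 119.9, and Aurkb, the kinase of the complex, at 0, 0, 53.7 and 55.8. Incenp, its scaffold, was at 25.5, 18.5, 62.6 and 127, well above 0 in all 4 libraries.

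Motors, chromosome and cytokinesis genes were also split, but several of them were low in combo. Kif11, the motor that separates spindle poles, was at 0.16, 1.73, 53.6 and 89.5. Top2a, which untangles DNA, was at 0.39, 0, 81.2 and 72.1. Mki67, which encodes the proliferation marker Ki-67, was at 0, 1.59, 29.1 and 6.08. Kif11 and Top2a were high in both libraries with the PD-1 antibody, whereas Mki67 in combo was nearer to anti_B7S1 than to anti_PD1. Kif23 and Racgap1 encode the centralspindlin partners, and Kif23 was at 0.22, 0, 33.5 and 9.51. Racgap1 was at 5.69, 18.8, 119 and 239.9, present in all 4 libraries. Prc1, which bundles the central spindle, was at 1.97, 1.43, 81.7 and 64.2. Ect2, the exchange factor that centralspindlin recruits to start furrowing, was at 0, 0, 42.1 and 0.81, and Anln, the furrow protein anillin, at 0, 0, 15.9 and 0.25. Ect2 and Anln were abundant in anti_PD1 and under 1 FPKM in the other libraries.

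**Figure D2:**
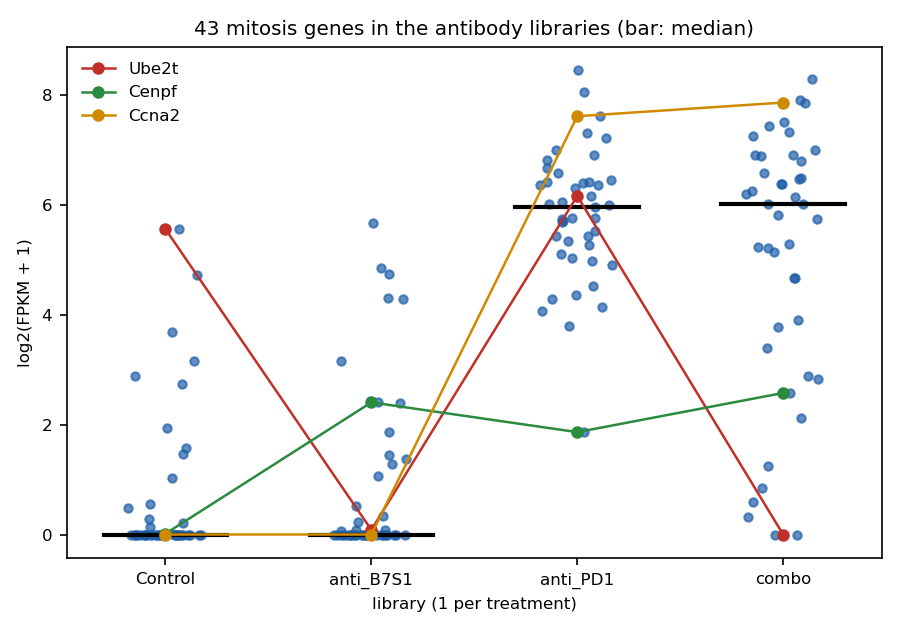
Level of the 43 mitosis genes in the 4 antibody libraries, 1 library per treatment, as log2(FPKM + 1); points are genes, black bars are medians, and coloured lines follow Ccna2, Cenpf and Ube2t. Medians are 0 in Control and anti_B7S1, and combo has a tail of low members that anti_PD1 lacks.

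Anti_PD1 and combo were not alike for every member. In combo against anti_PD1, 6 of 43 members were called higher, against 12.8% of all genes, and 13 lower, against 17.8%, with a median of -0.34 against -0.04 for all genes. Plk1, Ndc80, Cdc20 and Ube2c had the largest ratios upward, at 4.08, 3.85, 3.28 and 2.09 on the (FPKM + 1) scale. Downward, Ube2t, an E2 enzyme of DNA crosslink repair, was at 46.2, 0.06, 70.7 and 0 and was the highest of all members in Control. Aurka, Ect2 and Ckap2 followed, the last of them a spindle-associated protein at 0, 0, 52.9 and 1.36. With the libraries scaled to one median, 3 members were called higher and 14 lower, against 1771 and 2713 of 14710 genes. In anti_PD1 against anti_B7S1, a comparison added after the values were seen, 42 members were called higher, against 19.4% of all genes, and none lower, against 13.1%, with a median of 5.17. In anti_B7S1 against Control, 4 members were called higher (Cdca8, Bub1b, Cenpa and Racgap1, against 18.3% of all genes) and 2 lower (Ube2t and Cdk1, against 13.9%), and 21 had equal values in both.

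The 4 antibody libraries also differed in how many genes they detected. The number of genes at 1 FPKM or more was 5752 in Control, 6972 in anti_B7S1, 8640 in anti_PD1 and 6913 in combo, and the share of listed genes at 0 was 42.4%, 30.1%, 15.3% and 32.8%. In the same order, 39.1%, 47.4%, 58.7% and 47% of all listed genes were at 1 FPKM or more, as were 10, 13, 43 and 38 of the 43 members. Of all genes, 20.3% were at 0 in both Control and anti_B7S1, as were 21 of the 43 members. The part of detection in the members' values was not tested. The summed CD8 T cell markers were 3711, 3793, 3853 and 5524 FPKM in the same order, and none of the 9 listed markers was called higher or lower in anti_PD1 against Control. Havcr2 was at 0.19 FPKM in Control and between 174 and 213 in the other 3, a split that differs from that of the members. The summed macrophage and dendritic cell markers were 677, 333, 241 and 206 FPKM, with 4, 2, 7 and 4 of the 15 listed markers at 1 FPKM or more. The counts of these markers listed at 0 were 9, 9, 4 and 6. Cd68 differed from Control by -7.88 in anti_B7S1, -3.26 in anti_PD1 and -7.95 in combo on the log2(FPKM + 1) scale. Lyz2 was at 66.7 FPKM in combo and at 0.2 or less in the others. Cd14 was at 0 in the others and differed from Control by 5.23 in combo on that scale. The sum of the erythroid markers was split along the same line as the members, in the opposite direction. The 4 listed markers summed to 38.4, 40.2, 0.09 and 0.1 FPKM, with 1, 2, 0 and 0 of them at 1 FPKM or more. The sums of Control and anti_B7S1 rested on different genes. In anti_B7S1 against Control, Hbb-bs differed by 4.60 and Hba-a1 by -2.29 on the log2(FPKM + 1) scale. The 2 listed NK cell markers summed to 1.16, 0.04, 23.9 and 0.03 FPKM and the 3 listed B cell markers to 0.09, 0, 13.2 and 0.04, both highest in anti_PD1. The part of these markers in the members' values was not tested.

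Related lists differed in how many of their genes were called in anti_PD1 against Control, where 23.3% of all genes were called higher and 12.7% lower. Of other spindle, kinetochore and division genes, 41 of 53 listed were called higher, with a median of 4.06. Of DNA replication genes, 30 of 42 were called higher and 2 lower, with a median of 3.19, Rrm2 and Mcm3 showing the largest differences of 8.00 and 7.09. Of condensin and cohesin genes, 12 of 17 were called higher, and of mitotic entry genes and their transcription factors, 11 of 21. The list of APC/C genes gave 5 of 15 higher and 2 lower with a median of 0.36, Fbxo5 showing the largest difference of 6.32. G1 cyclins and kinases gave 2 of 9 higher and 1 lower, and CDK inhibitors and quiescence genes 4 of 14 higher and 6 lower; the shares called higher in these last lists were near that of all genes. In the division list 1 gene was called lower, and none were in the condensin or mitotic entry lists. In combo against anti_B7S1 the counts called higher were 37 of 53, 21 of 42, 11 of 17, 6 of 21, 5 of 15, 4 of 9 and 1 of 14 in that order, against 17.1% of all genes. The counts called lower were 0, 5, 0, 4, 3, 4 and 5, against 15.8%, and the G1 list had a median of -0.86.

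The sorted libraries compare PD-1+ populations that carry Tim-3, the B7S1 receptor or neither. The mean over the 3 sets was higher in TIM-3_SP than in DN for 33 of 41 tested members, against 40.2% of all genes. In B7S1R_SP against TIM-3_SP it was lower for 26 members and higher for 15, where 59.6% of all genes were higher. No member passed the test in either pair. With limma on log2(FPKM + 1), population and set as terms and Benjamini-Hochberg adjustment over 10178 genes, 0 of 41 tested members had an adjusted p under 0.05 in TIM-3_SP against DN, where 0.059% of all genes were called higher and 0% lower. At an unadjusted p under 0.05, 10 members were higher, against 2.38% of all genes, and none lower, against 6.68%. Without the DN library of wild type 1 the 10 became 2, without the TIM-3_SP library of wild type 2 it became 4, and without that of wild type 1 it became 6. The median member difference was 0.88 against -0.14 for all genes. Scaling the libraries to one median moved the median of all genes to 0.04 and that of the members to 1.07. The median was 0.95 in wild type 1, 1.46 in wild type 2 and 0.08 in the set labelled KO, and without the DN library of wild type 1 it was 0.56. In this comparison 15 members were higher in all 3 sets, against 8.61% of all genes, and 1, Cdc20, was lower in all 3, against 19.7%. The labels do not say whether the sets came from separate mice, so p-values measure the spread between these libraries, which may be technical.

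In B7S1R_SP against TIM-3_SP, 0 of 41 members passed at an adjusted p of 0.05, where 0.246% of all genes were called higher and 0.167% lower. At an unadjusted p under 0.05, 6 members were lower, against 5.06% of all genes, and 2 higher, against 9.83%. The 6 became 2 without the TIM-3_SP library of wild type 2, and the 2 became 0 without either the TIM-3_SP or the B7S1R_SP library of wild type 1 and 1 without the TIM-3_SP library labelled KO. The median member difference was -0.46 against 0.18 for all genes (-0.67 against -0.03 with the libraries scaled), with -0.20 in wild type 1, -1.33 in wild type 2 and -0.02 in the set labelled KO. It rested on wild type 2: without the B7S1R_SP library of that set the median was 0.0013, and without its TIM-3_SP library it was -0.05. In all 3 sets 12 members were lower, against 13.9% of all genes, and 2, Pbk and Cdc20, higher, against 24.7%. In B7S1R_SP against DN, 0 of 41 members passed, with 0% of all genes called in either direction, and 3 were higher at an unadjusted p under 0.05, against 3.25%, and none lower, against 3.41%. The 3 became 1 without the B7S1R_SP or the DN library of wild type 1 or the TIM-3_SP library labelled KO, and 5 without the DN library labelled KO. The median member difference was 0.64 against 0.01, with 1.36 in wild type 1, 0.01 in wild type 2, and 0.22 in the set labelled KO, and it was 0.30 without the B7S1R_SP library of wild type 1, 0.32 and 0.34 without the DN libraries of wild type 1 and 2, and 0.99 without the B7S1R_SP library of wild type 2. In all 3 sets 10 members were higher, against 15.8% of all genes, and none lower, against 14%.

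B7S1R_SP libraries also stood apart in markers of other cells. The summed macrophage and dendritic cell markers in wild type 1, wild type 2 and KO were 2544, 949 and 9583 FPKM in B7S1R_SP, 228, 395 and 480 in TIM-3_SP, and 999, 494 and 492 in DN. Of 15 tested markers, 11 were higher in B7S1R_SP than in TIM-3_SP in all 3 sets, against 24.7% of all genes. The summed CD8 T cell markers were 4796, 2394 and 2164 in B7S1R_SP, 7113, 9057 and 6726 in TIM-3_SP, and 7844, 6264 and 3485 in DN. The part of other cells in the members' values was not tested.

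**Figure D3:**
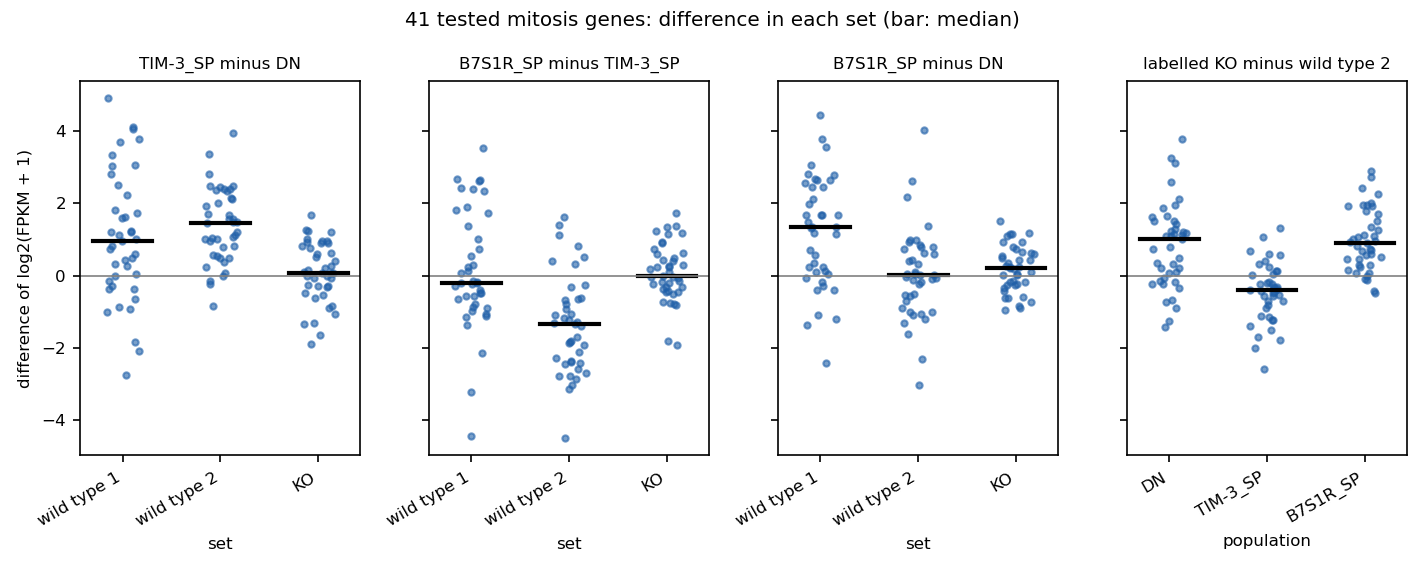
Difference of log2(FPKM + 1) for the 41 tested mitosis genes in 4 comparisons, shown separately for each set or, for the labelled KO, each population; points are genes and bars are medians. In TIM-3_SP against DN the medians are 0.95, 1.46 and 0.08 in wild type 1, wild type 2 and KO, and the labelled KO against wild type 2 has a median of -0.41 in TIM-3_SP and positive medians in the other 2 populations.

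Values below are in FPKM in the order DN, TIM-3_SP, B7S1R_SP for each set. Among the cyclins and their kinase, Ccnb1 was at 3.09, 2.13 and 9.47 FPKM in wild type 1, 4.44, 22.8 and 2.67 in wild type 2 and 15.8, 8.02 and 13.0 in the set labelled KO. Ccnb2 was at 0.07, 12.9 and 22.3 FPKM in wild type 1, 20.3, 85.6 and 25.5 in wild type 2 and 59.7, 86.1 and 49.2 in the set labelled KO, lowest in DN in wild type 1 and wild type 2 and highest in TIM-3_SP in wild type 2 and KO. The difference of TIM-3_SP from DN for Ccnb2 was 2.08 ± 0.83 (SE, 3 sets; limma adjusted p = 0.511). Ccna2 was at 5.98, 8.84 and 9.26 FPKM in wild type 1, 4.91, 17.8 and 1.75 in wild type 2 and 11.6, 11.6 and 13.8 in the set labelled KO. Cdk1 was at 0.04, 0.07 and 4.68 FPKM in wild type 1, 17.7, 31.9 and 8.31 in wild type 2 and 39.8, 21.6 and 25.7 in the set labelled KO, with DN and TIM-3_SP of wild type 1 near 0. The populations of Ccnb1, Ccna2 and Cdk1 overlapped across sets. Aurka was at 0.12, 0 and 5.14 FPKM in wild type 1, 8.14, 9.67 and 3.36 in wild type 2 and 7.24, 2.27 and 3.61 in the set labelled KO, and Plk1 at 2.78, 1.07 and 3.14 FPKM in wild type 1, 5.21, 8.11 and 0.26 in wild type 2 and 2.75, 0.52 and 1.02 in the set labelled KO. Neither kinase was higher in TIM-3_SP than in DN outside wild type 2.

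Of the checkpoint genes, Bub1 was at 0, 2.03 and 0.18 FPKM in wild type 1, 2.24, 3.52 and 1.84 in wild type 2 and 2.73, 4.65 and 3.98 in the set labelled KO, and Bub1b at 4.74, 8.61 and 4.52 FPKM in wild type 1, 2.07, 9.01 and 0.23 in wild type 2 and 2.29, 6.88 and 3.64 in the set labelled KO. Both were higher in TIM-3_SP than in either other population in all 3 sets. For Bub1b the difference of TIM-3_SP from DN was 1.24 ± 0.54 (SE; limma adjusted p = 0.543). That of B7S1R_SP from TIM-3_SP was -1.53 ± 0.54 (limma adjusted p = 0.24). Mad2l1 was at 18.3, 9.21 and 8.01 FPKM in wild type 1, 14.5, 76.8 and 29.9 in wild type 2 and 56.0, 64.9 and 63.5 in the set labelled KO, higher in TIM-3_SP than in DN in wild type 2 and KO only. Cdc20 was at 4.99, 3.87 and 25.0 FPKM in wild type 1, 4.97, 4.4 and 10.8 in wild type 2 and 5.94, 4.84 and 7.81 in the set labelled KO. It was highest in B7S1R_SP and lowest in TIM-3_SP in all 3 sets, a pattern opposite to the median member, with a difference of 1.38 ± 0.49 for B7S1R_SP against TIM-3_SP (SE; limma adjusted p = 0.24). Ube2c, its partner at the APC/C, was at 5.02, 49.3 and 37.4 FPKM in wild type 1, 34.8, 199.99 and 32.1 in wild type 2 and 94.5, 146 and 82.6 in the set labelled KO, with TIM-3_SP highest in all 3 sets.

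Of the kinetochore genes, Cenpa was at 67.3, 138 and 68.8 FPKM in wild type 1, 89.0, 264 and 37.9 in wild type 2 and 125, 289 and 82.2 in the set labelled KO, highest in TIM-3_SP in all 3 sets. It was lower in B7S1R_SP than in TIM-3_SP by -1.85 ± 0.46 (SE; limma adjusted p = 0.131), and this was the only member to pass under any alternative, at an adjusted p of 0.0327 when the prior variance followed the mean level. Spc25 was at 0.48, 23.8 and 0.13 FPKM in wild type 1, 9.69, 46.0 and 4.3 in wild type 2 and 24.9, 47.5 and 34.1 in the set labelled KO, with DN and B7S1R_SP under 1 FPKM in wild type 1. Its differences were 2.37 ± 0.72 for TIM-3_SP against DN (limma adjusted p = 0.415) and -2.69 ± 0.72 for B7S1R_SP against TIM-3_SP (limma adjusted p = 0.145). Spc24, of the same complex, was at 20.0, 362 and 246 FPKM in wild type 1, 6.61, 39.1 and 123 in wild type 2 and 71.8, 59.1 and 113 in the set labelled KO. It was higher in B7S1R_SP than in DN in all 3 sets, by 2.74 ± 0.79 (limma adjusted p = 0.715), and reached 362 FPKM in wild type 1, where Spc25 stood at 23.8. Ndc80 was at 6.35, 0.09 and 1.83 FPKM in wild type 1, 8.97, 12.0 and 5.87 in wild type 2 and 4.38, 9.43 and 9.31 in the set labelled KO, and Cenpe at 0, 2.5 and 2.17 FPKM in wild type 1, 0.65, 2.42 and 1.73 in wild type 2 and 0.74, 1.97 and 1.55 in the set labelled KO. Cenpe was highest in TIM-3_SP in all 3 sets, while Ndc80 was lowest there in wild type 1.

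Of the passenger complex, Birc5 was at 3.95, 34.0 and 40.0 FPKM in wild type 1, 16.4, 180.0 and 32.0 in wild type 2 and 105, 211 and 126 in the set labelled KO. Its mean was higher in TIM-3_SP than in DN by 2.40 ± 0.65 (SE; limma adjusted p = 0.362) and in B7S1R_SP than in DN by 1.41 ± 0.65 (limma adjusted p = 0.753), in all 3 sets for both. Cdca8 was at 0.14, 33.1 and 14.6 FPKM in wild type 1, 15.9, 63.2 and 16.0 in wild type 2 and 20.1, 21.5 and 16.9 in the set labelled KO, with DN of wild type 1 near 0 and a difference of TIM-3_SP from DN of 2.31 ± 0.86 (limma adjusted p = 0.474). Aurkb was at 2.45, 1.2 and 6.8 FPKM in wild type 1, 0, 14.5 and 5.19 in wild type 2 and 7.75, 9.48 and 9.2 in the set labelled KO, listed at 0 in DN of wild type 2 and higher in B7S1R_SP than in DN in all 3 sets, by 1.34 ± 0.81 (limma adjusted p = 0.767).

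Of the motors and chromosome proteins, Kif11 was at 0.17, 1.55 and 2.73 FPKM in wild type 1, 2.73, 6.52 and 2.18 in wild type 2 and 5.48, 3.25 and 9.89 in the set labelled KO, and Kif15, a second plus-end motor of the spindle, at 4.61, 11.8 and 8.16 FPKM in wild type 1, 10.2, 14.73 and 2.64 in wild type 2 and 6.06, 12.8 and 2.62 in the set labelled KO. Kif15 was highest in TIM-3_SP in all 3 sets. Top2a was at 1.76, 5.51 and 6.07 FPKM in wild type 1, 4.17, 14.4 and 7.86 in wild type 2 and 10.8, 8.49 and 11.7 in the set labelled KO, and Mki67 at 0.33, 3.09 and 2.34 FPKM in wild type 1, 3.38, 3.34 and 4.76 in wild type 2 and 2.7, 5.96 and 6.85 in the set labelled KO. Both were lowest in DN in wild type 1, but in wild type 2 Mki67 differed little between DN and TIM-3_SP. Among cytokinesis genes, Kif23 was at 4.36, 8.4 and 0 FPKM in wild type 1, 0, 4.55 and 0.53 in wild type 2 and 2.14, 6.38 and 4.96 in the set labelled KO, highest in TIM-3_SP in all 3 sets, with a difference of -1.80 ± 0.68 for B7S1R_SP against TIM-3_SP (SE; limma adjusted p = 0.275). Prc1 was at 2.8, 16.9 and 7.51 FPKM in wild type 1, 5.86, 6.24 and 9.29 in wild type 2 and 14.8, 9.82 and 23.5 in the set labelled KO, Ect2 at 0.54, 0.2 and 5.06 FPKM in wild type 1, 0.71, 3.69 and 0.77 in wild type 2 and 3.02, 1.9 and 1.62 in the set labelled KO, and Anln at 0.1, 0 and 0.68 FPKM in wild type 1, 0, 0 and 0.75 in wild type 2 and 0.64, 0 and 1.44 in the set labelled KO. Prc1 was lowest in DN in wild type 1 and wild type 2, and Anln was listed at 0 in TIM-3_SP in every set. Pbk, a mitotic kinase also called TOPK, was at 0, 0 and 5.32 FPKM in wild type 1, 4.11, 6.56 and 12.2 in wild type 2 and 69.7, 17.9 and 61.8 in the set labelled KO. Its difference between B7S1R_SP and TIM-3_SP was 1.73 ± 0.62 (limma adjusted p = 0.241), upward in all 3 sets.

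Of the related lists, none had a called gene in TIM-3_SP against DN by limma at an adjusted p of 0.05. Of all genes, 8.61% were higher in all 3 sets and 19.7% lower, with a median of -0.14. The other spindle, kinetochore and division genes had a median of 0.55 over 41 tested genes, of which 13 were higher in all 3 sets and 2 lower. DNA replication genes had a median of 0.18 over 41 tested genes, with 7 higher and 5 lower in all 3 sets, and G1 cyclins and kinases a median of -0.52 over 9. In B7S1R_SP against TIM-3_SP the replication genes had a median of 0.46, of the opposite sign to the mitosis genes (-0.46). In all 3 sets 16 of the 41 replication genes and 2 of the 41 mitosis genes were higher. Of all genes 24.7% were higher in all 3 sets, with a median of 0.18. The difference between these lists was not tested.

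The set labelled KO was compared with wild type 2, whose files list the same genes. By limma, 0 of 41 members passed at an adjusted p of 0.05, where 0% of all genes were called higher and 0.00983%, 1 gene, lower. At an unadjusted p under 0.05, 2 members were higher, against 1.78% of all genes, and none lower, against 4.8%. The 2 became 1 without the B7S1R_SP or the DN library of either compared set, 4 without TIM-3_SP of wild type 1 or of the set labelled KO, and 6 without TIM-3_SP of wild type 2. The median member difference was 0.40 against -0.15 for all genes, and 0.68 against 0.12 with the libraries scaled. It was 1.01 in DN and 0.91 in B7S1R_SP but -0.41 in TIM-3_SP. Leaving out single libraries moved it from -0.02 (without B7S1R_SP of wild type 2) and 0.16 (without DN of KO) to 0.75 and 0.84 (without TIM-3_SP of KO and of wild type 2). In all 3 populations 8 members were higher, against 13.8% of all genes, and 1, Kif15, lower, against 23.4%.

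Pbk had the largest difference. In DN, TIM-3_SP and B7S1R_SP it stood at 4.11, 6.56 and 12.2 FPKM in wild type 2 and at 69.7, 17.9 and 61.8 in the set labelled KO, so that the groups did not overlap. The difference was 2.45 ± 0.62 (SE; limma adjusted p = 0.755). Birc5 differed by 1.59 ± 0.65 (limma adjusted p = 0.755) and Spc25 by 1.35 ± 0.72 (limma adjusted p = 0.769), and in both the TIM-3_SP library of wild type 2 lay within the range of the KO libraries. Kif15 differed by -0.29 ± 0.52 (limma adjusted p = 0.931).

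Genotype and set cannot be told apart here, since each set may be 1 group of mice and 1 sort. The wild type 2 libraries also held erythroid RNA: the summed erythroid markers were 11150, 66200 and 95220 FPKM in B7S1R_SP, DN and TIM-3_SP, against 4.75, 142 and 11.1 in the set labelled KO and 0 to 3.14 in wild type 1, whose files list 2 of the 5 markers. The 1 gene called lower in the set labelled KO was Hba-a2, an alpha globin gene, with a difference of -11.44. The part of this RNA in the members' values was not tested. The wild-type sets also differed from each other, in files that list different genes. Wild type 1 against wild type 2 had member medians of -0.93 in TIM-3_SP, -0.81 in DN and 0.33 in B7S1R_SP. The medians of all genes were 0.45, 0.10 and 0.68 in the same order, above that of the members in each population.

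The bulk pair compared OVA-specific CD8+ TILs of both genotypes. Of 39 listed members, 27 were higher and 12 lower in the library labelled KO, with a median difference of 0.29 on the log2(RPKM + 1) scale against -0.06 for all genes. By the rule of at least 2-fold on that scale with 5 RPKM or more in the higher library, 6 were higher, against 3.78% of 17205 genes, and none lower, against 4.29%. With 1 library per genotype there was no test. The steps between low values gave about 11200000 reads for wild type and 12200000 for the library labelled KO, taking the smallest step as 1 read.

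The 6 were Ccnb2, Pbk, Aurka, Ccnb1, Hmmr and Spc24. Ccnb2 was at 0.117 RPKM in wild type and 33.8 in the library labelled KO, or about 2 and 631 reads. Pbk was at 0.108 RPKM in wild type and 7.54 in the library labelled KO, about 2 and 158 reads, and Aurka at 0.047 RPKM in wild type and 5.45 in the library labelled KO, about 1 and 126 reads. These 3 genes were all but absent from the wild-type library. Ccnb1 was at 2.88 RPKM in wild type and 13.3 in the library labelled KO. Hmmr, a spindle assembly factor, was at 1.5 RPKM in wild type and 6.78 in the library labelled KO, and Spc24 at 9.42 RPKM in wild type and 22.0 in the library labelled KO. A further 3 members were at least 2-fold higher and 1, Kif4, at least 2-fold lower, all under the minimum of 5 RPKM. With a minimum of 1 RPKM, 9 members were called higher and 1 lower, against 1154 and 1296 of 17205 genes. Kif4 was at 2.37 RPKM in wild type and 0.458 in the library labelled KO. Aurkb was at 0.322 RPKM in wild type and 4.45 in the library labelled KO, about 7 and 106 reads, and Cenpf at 0.381 RPKM in wild type and 3.13 in the library labelled KO. Kif2c, a microtubule-depolymerizing motor, was at 0.032 RPKM in wild type and 2.6 in the library labelled KO, about 1 and 90 reads.

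Among the other members, Cdk1 was at 10.0 RPKM in wild type and 16.1 in the library labelled KO, and Ccna2 was lower in the library labelled KO, at 6.34 RPKM in wild type and 3.55 in the library labelled KO. Cenpa, the highest member, was at 96.3 RPKM in wild type and 95.5 in the library labelled KO. Plk1 was at 3.64 RPKM in wild type and 3.62 in the library labelled KO, and Top2a at 16.0 RPKM in wild type and 14.5 in the library labelled KO. Incenp was at 17.2 RPKM in wild type and 10.8 in the library labelled KO and Ndc80 at 11.8 RPKM in wild type and 8.56 in the library labelled KO, both lower in the library labelled KO. In the sorted libraries, Ccnb2 of wild type was not low as a rule: it lay between 12.9 and 85.6 FPKM except for 0.07 in DN of wild type 1. The summed CD8 T cell markers were 9580 RPKM in wild type and 11210 in labelled KO, the macrophage and dendritic cell markers 315 and 359.8, and Lyz2 0.171 and 9.81; their part in the members' values was not tested.

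**Figure D4:**
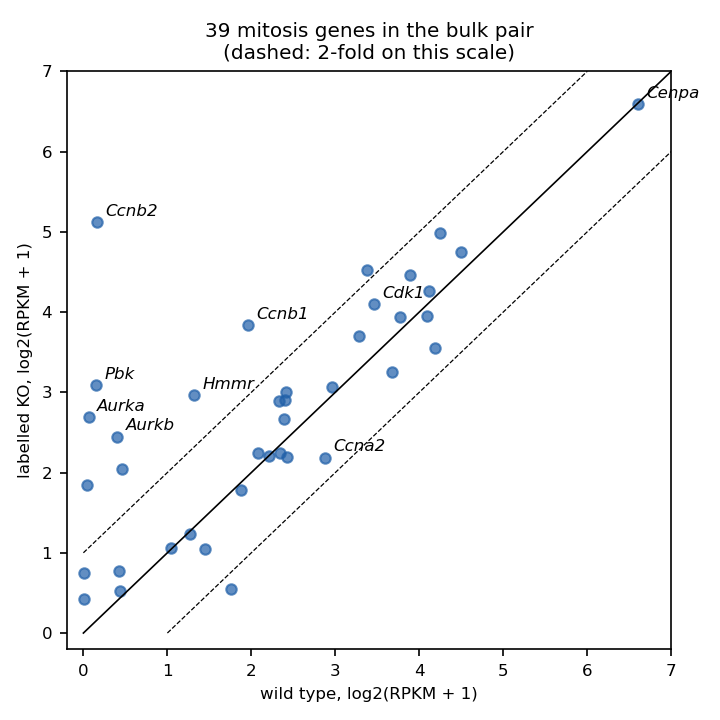
Level of the 39 listed mitosis genes in the bulk library labelled KO (y axis) against the bulk wild-type library (x axis), both as log2(RPKM + 1); the solid line marks equal levels and the dashed lines 2-fold on this scale. Ccnb2, Pbk and Aurka lie far above the line, with 0.117, 0.108 and 0.0473 RPKM in wild type, while Cenpa and Plk1 lie close to it.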

How the data were processed

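RNA of the 15 libraries was made into cDNA with the SMARTer ultra low input kit and read on Illumina HiSeq machines, per the labels' protocols and the design text. The submitters' processing notes name HISAT2, Bowtie2, RSEM and the build mm10; which step made which file is not given in the sources used here. Per the file headers, the bulk files hold RPKM, and the authors deposited FPKM for the 13 other libraries; neither is a count, so no count model was used and the depth of the FPKM libraries is unknown. Files list only part of the genes, and a value of 0 can be a failed estimate.

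The members and the related lists were chosen with earlier results of these data known. From the deposited values, log2(value + 1) was computed in Python 3.11.15 with pandas 2.3.3. The 9 sorted libraries were fitted with limma 3.58.1 in R 4.3.3, with population and set as terms; of 14020 symbols listed in all 9, those averaging 1 FPKM or more were kept; p-values were adjusted by Benjamini-Hochberg over 10178 genes, with a threshold of 0.05. The fit was tested on simulated data. The set is the replicate block: wild-type libraries with the same number deviated together (r = 0.20, 0.27 and 0.41 over genes), and each correlation was above 0.1. Comparisons with 1 library per group had no test; a gene was called at 2-fold on the log2(value + 1) scale with 5 or more in the higher library. In the sorted libraries every value of a fixed panel of 23 members was given, with the 3 largest differences each way among members in 1 direction in all 3 sets; elsewhere the rule named the 4 largest ratios each way among members with 5 or more. Other members in the antibody and bulk libraries, and Hba-a2, were chosen after their values were seen. Alternatives were other pseudocounts, minima, scalings, sets of libraries and fits without the replicate block. Promoter letters and start sites are from RefSeq (GRCm38.p6).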

Additional observations from a re-analysis of the deposited data

Results flagged for a closer look

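The median difference of the 41 tested members between the labelled KO set and wild type 2 was -0.41 on the log2(FPKM + 1) scale in TIM-3_SP, while it was 1.01 in DN and 0.91 in B7S1R_SP. It is listed here because the populations moved in opposite directions under the same contrast. Each value is a difference of 1 library from 1 library, and the difference between populations was not tested. In TIM-3_SP 29 of the 41 members were lower and 12 higher, whereas 30 were higher in DN and 36 in B7S1R_SP. Of all genes, 45.2% were higher in TIM-3_SP, 35.3% in DN and 48.9% in B7S1R_SP.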

How the results depend on the processing

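In the 4 sorted comparisons, no member passed an adjusted p of 0.05 by limma under the alternatives run, with 1 exception: in B7S1R_SP against TIM-3_SP, 1 member (Cenpa) passed when the prior variance followed the mean level. Leaving out each library in turn gave from 0 to 0 called members in all 4. Those fits moved the member median from 0.56 to 1.21 in TIM-3_SP against DN, from -0.78 to 0.0013 in B7S1R_SP against TIM-3_SP, from 0.30 to 0.99 in B7S1R_SP against DN, and from -0.0228 to 0.84 in labelled KO against wild type 2 (the sign turned without B7S1R_SP of wild type 2 in the second and the last); the cause of these moves was not tested. Cdc20 in TIM-3_SP against DN ranged from -0.46 to 0.0456 and Kif15 in labelled KO against wild type 2 from -0.69 to 0.0595. With no replicate block, 0 of 41 members passed in the 3 population comparisons, and the number of all genes called went from 6, 42 and 0 with the replicate block to 1, 12 and 0. For the genotype the fit without the block set the labelled KO libraries against both wild-type sets, a different contrast, and called 0 genes. Scaling kept the sign of all 4 member medians.

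Values of the unreplicated comparisons moved with the pseudocount and minima by construction, since many members were at 0. With a pseudocount of 0.1 the member median was 8.19 in anti_PD1 against Control, 7.15 in combo against Control and 7.00 in combo against anti_B7S1. An alternative added after seeing the data kept only genes above 0 in both libraries. In anti_PD1 against Control 14 of 16 members were called higher (median 4.48), and in combo against anti_B7S1 16 of 18. Combo against Control had 13 of 15 higher and 0 lower, and anti_B7S1 against Control 2 of 13 higher and 1 lower. In the same order, 1675 of 7793, 1589 of 7859, 1594 of 7071 and 1582 of 7023 genes were called higher. Called lower were 1660, 1673, 1492 and 1411. With a minimum of 1, anti_B7S1 against Control had 7 members higher and 2 lower, against 3272 and 2270 of 14710 genes. At that minimum bulk KO against wild type had 9 higher and 1 lower, against 1154 and 1296 of 17205 genes. With a minimum of 10 the bulk pair had 3 higher and 0 lower, against 391 and 435. With libraries scaled to one median, combo against anti_PD1 had 3 higher and 14 lower, against 1771 and 2713 of 14710 genes.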
